A study of Homo sapiens with 16 samples.

Results

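The 6 conventional actin genes of the human genome were followed through a time course of latrunculin B, a drug that binds actin monomers and depolymerises actin filaments. They were chosen by name, as all members of the family (ACTB, ACTG1, ACTA1, ACTA2, ACTC1 and ACTG2). They are 6 of the 35810 genes obtained by summing the deposited transcripts, and all 6 are among the 16705 genes that were tested. The RNA came from NGN3-GFP cells, a reporter derivative of the human embryonic stem cell line SA121, differentiated in culture to pancreatic progenitors on day 19. The 16 libraries form 6 groups. Controls were taken at 0 h (n = 3) and at 24 h (n = 2), and cells given latrunculin B (LatB) at 0.5 µM were taken after 3 h (n = 3), after 6 h (n = 3), after 12 h (n = 2) and after 24 h (n = 3). All groups carry the NGN3-GFP reporter and come from that 1 line. The control 24 h cells received DMSO, the vehicle. The control 0 h cells carry a DMSO tag too, yet the series text describes them as collected before any treatment began, which leaves their exposure to the vehicle uncertain. The labels list no vehicle group at 3, 6 or 12 h, so at these times the drug cannot be told apart from the hours in culture. Nothing says that replicates came from separate cultures, so the p-values measure the spread between these libraries, which may be technical.

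Actin is the protein of the microfilaments, and in the cell it passes continuously between monomers and filaments. The cytoplasmic actins, beta-actin (ACTB) and gamma-actin (ACTG1), are made in nearly every cell and build the cortex and stress fibres. The other genes encode the actins of muscle: ACTA1 that of skeletal muscle, ACTC1 that of heart, ACTA2 that of vascular smooth muscle and ACTG2 that of enteric smooth muscle. Actin genes are textbook targets of serum response factor (SRF), which binds the CArG box. The SRF cofactors of the MRTF family bind actin monomers, and this binding keeps them in the cytoplasm.

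The genes lie on 6 different chromosomes of GRCh38 in the GENCODE annotation. ACTB (ENSG00000075624.17) spans chr7:5526409-5563902 on the minus strand and ACTG1 (ENSG00000184009.13) spans chr17:81509413-81523847 on the minus strand. ACTA1 (ENSG00000143632.15) is at chr1:229430365-229434104 and ACTC1 (ENSG00000159251.9) at chr15:34790107-34795589, both on the minus strand. ACTA2 (ENSG00000107796.13) spans chr10:88935074-88991339 on the minus strand and ACTG2 (ENSG00000163017.14) spans chr2:73892314-73919865 on the plus strand. No source used here states how strand was handled in the counting, and the span of ACTA2 overlaps FAS and STAMBPL1 on the opposite strand, at 1.73 to 9.50 and 0.416 to 1.63 CPM (the reads of a gene scaled to the size of the library).

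The coding sequences are near-copies of each other, which limits how reads can be told apart. The last 90 coding bases before the stop codon, from the canonical transcript of each gene, are shown because they lie in the stretch where the family is nearly identical, and capitals mark the bases that differ from ACTB.
ACTB: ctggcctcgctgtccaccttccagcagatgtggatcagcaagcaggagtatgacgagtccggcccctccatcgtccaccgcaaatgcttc
ACTG1: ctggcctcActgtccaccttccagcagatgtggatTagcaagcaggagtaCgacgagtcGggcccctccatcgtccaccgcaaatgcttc
ACTA1: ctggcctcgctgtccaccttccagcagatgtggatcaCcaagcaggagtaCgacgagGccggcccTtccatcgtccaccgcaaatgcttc
ACTA2: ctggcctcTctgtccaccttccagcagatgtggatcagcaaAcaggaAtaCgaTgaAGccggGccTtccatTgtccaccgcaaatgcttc
ACTC1: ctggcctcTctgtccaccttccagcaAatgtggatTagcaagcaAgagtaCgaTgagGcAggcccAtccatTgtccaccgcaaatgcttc
ACTG2: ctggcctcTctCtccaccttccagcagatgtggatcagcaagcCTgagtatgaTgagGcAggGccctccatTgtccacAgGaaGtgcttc
ACTG1 and ACTA1 each differ from ACTB at 4 of these 90 bases, ACTA2 and ACTC1 at 10 and ACTG2 at 12. Over the whole coding sequence ACTB and ACTG1 were identical at 1027 of 1125 aligned bases (91.3%), and every other pair at 81.8% to 85.9%.

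Salmon, the program whose output format the deposited tables have, divides a read among all transcripts it matches. To see how many reads this could touch, each canonical transcript was read in windows of 31 bases and each window was looked for in the transcripts of all other genes. For ACTB 30.1% of the windows recurred elsewhere (46.3% in the coding part, 4.37% in the untranslated parts) and for ACTG1 21.9% (31.3% and 8.94%). Recurrence in another conventional actin was rarer, with 7.18% of windows for ACTB and 6.35% for ACTG1. The muscle actins shared fewer windows with any other gene, from 7.94% for ACTA1 and 4.14% for ACTC1 to 2.58% for ACTG2 and 1.21% for ACTA2. The 47 pseudogenes and close relatives of the family, of which 40 had a read, held between 0.459% and 1.27% of all actin-like reads in a library. POTEI, POTEF and ACTG1P25 held the most, at 242 to 428, 157 to 337 and 48 to 99 estimated reads per library. The values of ACTB and ACTG1 are therefore uncertain by the reads that salmon could assign to either a gene or its copies. Windows in the untranslated parts of the muscle actins, as annotated in GENCODE, recurred in no other gene. The deposited canonical transcripts of ACTC1 and ACTG2 were longer than annotated, at 3694 and 1530 bases against 1382 and 1501. The sequences behind these deposited lengths were not searched.

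At control 0 h the actin genes ran over 3 orders of size. On the TPM scale, which divides by transcript length and so allows a comparison between genes, ACTG1 was highest at 2541 ± 42.7 (SD, n = 3) and ACTB followed at 2220 ± 25.4. Their ranges of 2493 to 2573 and 2200 to 2248 TPM did not overlap. By mean TPM they took rank 41 and rank 54 among all genes. This order depends on ACTG1-201, which held 6.15% of the ACTG1 reads over the 16 libraries. Its deposited length was 471 bases against 2052 in the annotation, and a short length raises TPM. In CPM ACTB was higher, at 2564 against 2341. So was its canonical transcript, ACTB-217 (1812 bases), at 2531 CPM against 2036 CPM for ACTG1-205 (1919 bases). The smooth muscle gene ACTA2 stood at 35.6 ± 2.97 TPM, ACTC1 at 12.9 ± 1.84 and ACTA1 at 7.13 ± 0.390. The gene of enteric smooth muscle, ACTG2, was lowest at 2.70 ± 0.632 TPM, with 50 to 58 reads per library. Each of these steps was larger than the spread of the 3 libraries. The 4 muscle genes together made up 1.13% to 1.29% of the actin TPM.

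The low level of the muscle genes stood beside markers that fit the label of the cells. The summed CPM of 10 pancreatic progenitor markers was 4570 to 4773 at control 0 h, and 9 of the 10 were above 1 CPM in every library of every group. GP2, CDH1 and EPCAM led that sum, at means of 1643, 1057 and 866 CPM at control 0 h. PDX1 stood at 336 CPM, NKX6-1 at 107 CPM, and PTF1A, the marker below 1 CPM, at 0.25 CPM. Of 11 markers of striated muscle, which summed to 5.82 to 7.17 CPM, the determination factor MYOG was at 0 in every library and MYOD1 at 0 in all but 1, where it stood at 0.0415 CPM. The troponins TNNT2 and TNNI3, at a mean of 2.30 and 2.03 CPM, and MYL7 at 1.08 CPM were the highest of the list at control 0 h. TNNT2, a marker of heart muscle, was called higher at 3 h, by 1.55 on the log2 scale (adjusted p = 0.00593), and at 6 h, by 1.23 (adjusted p = 0.0159), and lower at 24 h, by 1.56 (adjusted p = 0.0124). The summed smooth muscle markers reached 286 to 345 CPM, led by TAGLN and MYOCD, while DES stayed between 0 and 0.136 CPM. In bulk RNA, fewer cells of a type and less RNA per cell cannot be told apart.

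One library stood apart and touches ACTA2 and ACTG2. LatB 12 h replicate 2 had 1067 CPM summed over 9 mesenchyme markers, against 173 to 448 in the other 15 libraries, and was above all of them for 7 of the 9 markers. COL3A1 stood at 684 CPM against 27.0 to 152, LUM at 75.5 against 3.90 to 19.0, and DCN at 8.52 against 0.0921 to 1.47. Its summed pancreatic markers, 3522 CPM, were the lowest of the 16 libraries, the others lying between 4199 and 5287. The tests of the actin genes at 12 h are given below with and without it. So are the 12 h counts of the actin-linked gene lists and of the smooth muscle markers, but not those of the other marker lists. With it left out, the 12 h group is 1 library, and the fit assumes that it varies like the other groups.

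**Figure D1:**
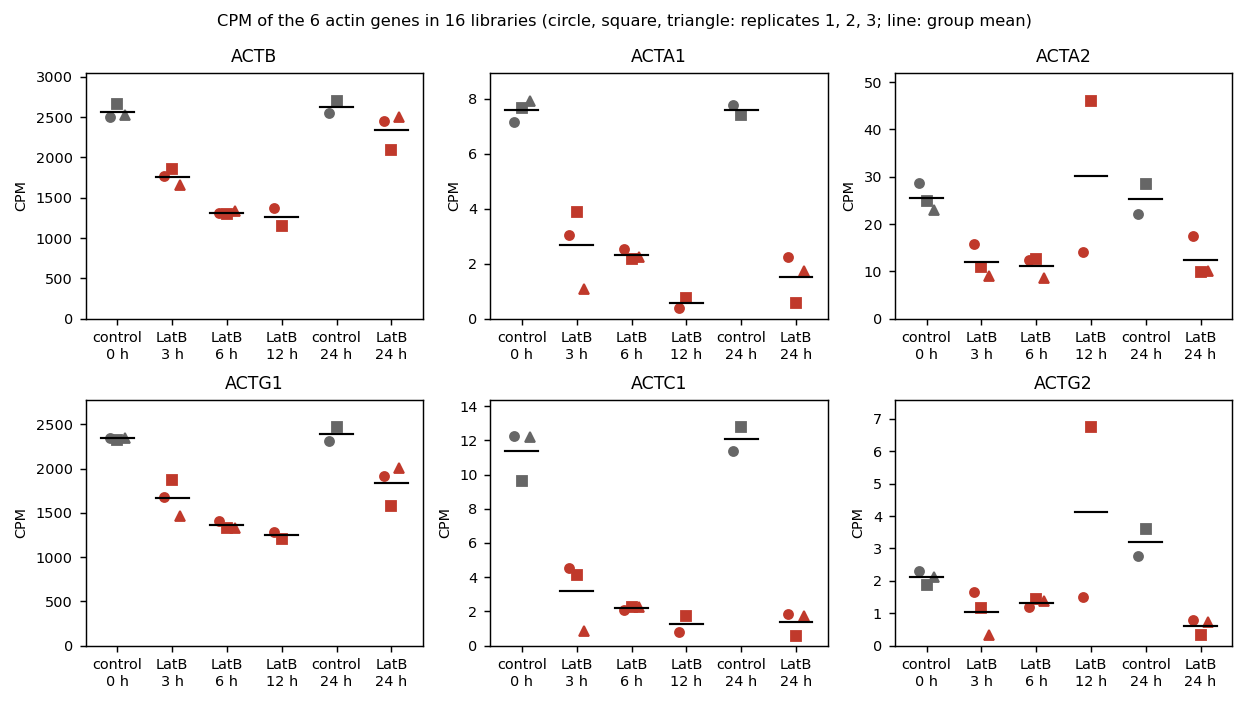
CPM, scaled reads (linear axes from 0), of each actin gene in each of the 16 libraries, with groups along the horizontal axis, controls in grey, LatB in red, and a line at the group mean. ACTB and ACTG1 lie lower at 3, 6 and 12 h and higher again at 24 h, ACTA1 and ACTC1 stay low at all 4 times, and ACTA2 and ACTG2 are high in LatB 12 h replicate 2.

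Between the controls no actin gene passed the test. Control 24 h against control 0 h gave 0 actin genes past an adjusted p of 0.05 in the edgeR fit, where 0.251% of all genes were called. None of the 6 had an unadjusted p under 0.05, and DESeq2 called none either. The log2 fold changes were 0.03 ± 0.09 (SE) for ACTB, 0.03 ± 0.10 for ACTG1, 0.00 ± 0.44 for ACTA1, -0.01 ± 0.39 for ACTA2 and 0.09 ± 0.49 for ACTC1. ACTG2 had 1.88 to 2.31 CPM at 0 h and 2.78 and 3.60 CPM at 24 h, ranges that did not overlap, with a log2 fold change of 0.60 ± 0.56 (adjusted p = 0.901). The share of all genes whose groups do not overlap is not given here. A lack of overlap between such small groups is therefore only a description, here and below.

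The cytoplasmic actins fell within 3 h, kept falling to 6 h and had risen again by 24 h. ACTB was at 2503, 2659 and 2528 CPM in the 3 libraries of control 0 h and at 1774, 1858 and 1653 CPM after 3 h. It reached 1310, 1302 and 1334 CPM after 6 h and 1373 and 1153 CPM after 12 h. No treated library of these times overlapped the control. The log2 fold change against control 0 h was -0.54 ± 0.08 (SE, adjusted p = 0.000137) at 3 h, a fall of 31.3%. It was -0.96 ± 0.08 (adjusted p = 8.3e-07) at 6 h and -1.02 ± 0.09 (adjusted p = 2.59e-06) at 12 h (a fall of 50.7%). The 12 h value was -0.90 (adjusted p = 2.1e-05) without LatB 12 h replicate 2. At 24 h ACTB was at 2448, 2089 and 2502 CPM, against 2547 and 2706 CPM in control 24 h. The groups did not overlap, but the difference of -0.16 ± 0.09 was not called (adjusted p = 0.146).

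ACTG1 moved alongside ACTB until 12 h and returned less far. Control 0 h had 2347, 2327 and 2349 CPM, and LatB had 1677, 1868 and 1465 CPM at 3 h, 1410, 1330 and 1332 CPM at 6 h, and 1289 and 1210 CPM at 12 h. Against control 0 h the log2 fold changes were -0.49 ± 0.09 (adjusted p = 0.00108), -0.79 ± 0.09 (adjusted p = 1.67e-05) and -0.91 ± 0.10 (adjusted p = 2.53e-05). All treated libraries of these times were below all controls, and without LatB 12 h replicate 2 the 12 h value was -0.86 (adjusted p = 0.000363). After 24 h ACTG1 stood at 1920, 1580 and 2006 CPM against 2308 and 2464 CPM in the vehicle, and the log2 fold change of -0.38 ± 0.10 was called (adjusted p = 0.00855). Without control 24 h replicate 2 it was -0.33 (adjusted p = 0.0684, within a range of 0.000994 to 0.0684 over the alternatives tried).

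Between successive times the fall of both genes continued from 3 to 6 h, and both rose from 12 to 24 h. From 3 to 6 h, a step in which 22.2% of all genes were called, 2 of the 6 actin genes fell: ACTB by 0.42 on the log2 scale (adjusted p = 0.00183) and ACTG1 by 0.30 (adjusted p = 0.0304). The call for ACTG1 was lost when any of 5 of the 6 libraries was left out (all but LatB 3 h replicate 3), with adjusted p from 0.0563 to 0.132, and with the replicate number as a block (0.0531) or under limma on log2(TPM + 1) and log2(TPM + 0.1) (0.0699 and 0.0668). From 6 to 12 h, where 29.0% of all genes were called, neither cytoplasmic actin was called (adjusted p = 0.655 for ACTB and 0.413 for ACTG1, and 0.712 and 0.742 without LatB 12 h replicate 2). From 12 to 24 h, where 11.7% of all genes were called, ACTB rose by 0.89 ± 0.09 (adjusted p = 0.000226) and ACTG1 by 0.56 ± 0.10 (adjusted p = 0.006). The rises were 0.77 (adjusted p = 0.000511) and 0.51 (adjusted p = 0.0304) without LatB 12 h replicate 2. With only these 5 libraries in the fit, both calls were lost (adjusted p = 0.187 and 0.205), as was every call over all genes. The libraries of 12 h and 24 h did not overlap for either gene.

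The difference of ACTB from its control was smaller at 24 h than at 3 h. The labels hold no vehicle at 3 h, so the effect there is LatB 3 h against control 0 h. Drug and hours in culture are not separated in it. The effect at 24 h minus the effect at 3 h was 0.38 ± 0.12 on the log2 scale (adjusted p = 0.0256), in a comparison that called 27.9% of all genes, and ACTB was the 1 actin gene called there. Without control 24 h replicate 1, LatB 3 h replicate 3, LatB 24 h replicate 1 or LatB 24 h replicate 3 the difference lay between 0.33 and 0.35 and was no longer called (adjusted p = 0.0519 to 0.115). For ACTG1 the same difference was 0.11 ± 0.14 (adjusted p = 0.595).

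The ratio of the cytoplasmic genes was highest at 24 h of drug. The ratio of ACTB to ACTG1 in TPM was 0.855 to 0.902 at control 0 h, 0.862 and 0.894 at control 24 h, 0.805 to 0.933 at 3 h, 0.763 to 0.815 at 6 h, and 0.826 and 0.880 at 12 h. In the 3 libraries of LatB 24 h it was 1.10, 1.12 and 1.06. By TPM ACTB was thus the highest actin gene in these 3 libraries and ACTG1 in the other 13. The side of 1 on which the ratio lies depends on ACTG1-201, deposited at 471 bases against 2052 in the annotation. In mean CPM, which does not divide by length, ACTB had 2564 against 2341 for ACTG1 at control 0 h. It had 1315 against 1357 at 6 h and 2346 against 1835 at LatB 24 h. Counting protein-coding transcripts alone gave 1.05 to 1.12 for LatB 24 h. That count keeps ACTG1-201, so it is no check on the deposited length. These ratios are a description and were not tested. The TPM of the 6 genes together was 4820 ± 21.2 (SD, n = 3) at control 0 h and 4955 ± 232 (n = 2) at control 24 h. It was 3120 ± 299 at 3 h, 2425 ± 88.9 at 6 h, 2488 ± 40.5 at 12 h and 3998 ± 480 at 24 h. At 6 and 12 h the sum stood at 50.3% and 51.6% of the mean at control 0 h. The TPM sums lack the scaling of libraries used for CPM. Against control 0 h the median change of all genes on log2(TPM + 1) was -0.072 at 6 h and 0.005 at 12 h.

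**Figure D2:**
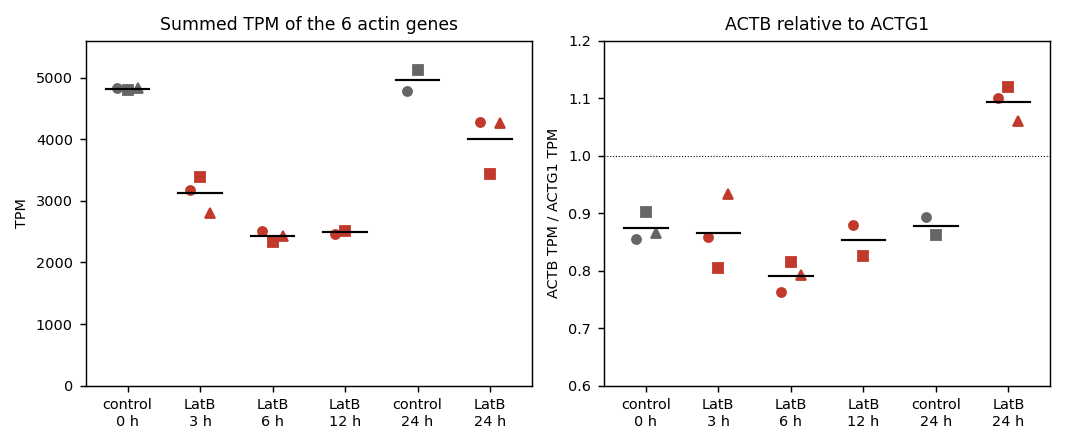
Left, the summed TPM of the 6 actin genes in each library (axis from 0), and right, the ratio of ACTB TPM to ACTG1 TPM (axis from 0.6, dotted line at a ratio of 1), with controls in grey, LatB in red, marker shapes for replicates 1 to 3 and a line at each group mean. The sum is lowest at 6 and 12 h, and the ratio is above 1 in the 3 LatB 24 h libraries and in no other. The side of 1 depends on the deposited transcript lengths.

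The striated muscle actins fell further than the cytoplasmic ones and did not return within the day. ACTA1 stood at 7.13, 7.67 and 7.93 CPM at control 0 h and 7.76 and 7.42 CPM at control 24 h. With the drug it had 3.04, 3.86 and 1.09 CPM at 3 h, 2.55, 2.16 and 2.24 CPM at 6 h, 0.394 and 0.745 CPM at 12 h, and 2.25, 0.582 and 1.73 CPM at 24 h. Every treated library was below every control, and the 12 h libraries rested on 9 and 22 reads. The log2 fold changes were -1.51 ± 0.42 (adjusted p = 0.0135) at 3 h, -1.71 ± 0.42 (adjusted p = 0.00517) at 6 h, -3.70 ± 0.57 (adjusted p = 0.000279) at 12 h and -2.32 ± 0.46 (adjusted p = 0.00141) against control 24 h. Leaving out LatB 12 h replicate 2 gave -4.25 (adjusted p = 0.00181) at 12 h. From 6 to 12 h ACTA1 fell by 1.99 (adjusted p = 0.0188), a call lost without LatB 12 h replicate 1 (0.0889) or replicate 2 (0.0527) and under limma on log2(TPM + 1) (0.0586), among alternatives from 0.00177 to 0.0889.

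ACTC1, the actin of the heart, had the lowest log2 fold change of the 6 genes at 3, 6 and 24 h, though its difference from ACTA1 was not tested. It had 12.2, 9.62 and 12.2 CPM at control 0 h and 11.4 and 12.8 CPM at control 24 h. Treated libraries had 4.54, 4.11 and 0.887 CPM at 3 h, 2.06, 2.23 and 2.28 CPM at 6 h, 0.788 and 1.72 CPM at 12 h, and 1.88, 0.552 and 1.76 CPM at 24 h. No treated library reached the lowest control, and the treated libraries held 18 to 142 reads each. The log2 fold change was -1.83 ± 0.47 (adjusted p = 0.00882) at 3 h, -2.37 ± 0.49 (adjusted p = 0.00148) at 6 h, -3.14 ± 0.60 (adjusted p = 0.00129) at 12 h and -3.12 ± 0.53 (adjusted p = 0.000479) at 24 h. The 12 h value became -3.84 (adjusted p = 0.00406) without LatB 12 h replicate 2.

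Most reads of ACTC1 were assigned to a transcript with no annotated coding sequence. ACTC1-206, which starts within the gene at position 34794050 of chromosome 15, took 77.4% of them over the 16 libraries, and the canonical coding transcript ACTC1-201, starting at position 34795549, took 21.4%. Both were lower with the drug: ACTC1-206 went from 8.89 ± 1.21 CPM (SD, n = 3) at control 0 h to 1.71 ± 0.0629 CPM at 6 h, and ACTC1-201 from 2.43 ± 0.379 to 0.482 ± 0.0664 CPM. Transcript values were not tested. The split between them is salmon's estimate, and the deposited length of ACTC1-201 was 3694 bases against 1382 in the annotation used here, so its transcript model in the authors' index was a different one.

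The smooth muscle actins were lower in most treated libraries and high in a single one. ACTA2 had 28.7, 24.8 and 23.0 CPM at control 0 h and 22.2 and 28.4 CPM at control 24 h. With the drug it had 15.8, 11 and 9.06 CPM at 3 h, 12.5, 12.6 and 8.62 CPM at 6 h, 14.1 and 46.1 CPM at 12 h, and 17.4, 9.94 and 10.1 CPM at 24 h. All treated libraries but LatB 12 h replicate 2 were below all controls. ACTA2 fell by 1.09 ± 0.36 on the log2 scale at 3 h (adjusted p = 0.0321) and by 1.18 ± 0.36 at 6 h (adjusted p = 0.0174). The call at 3 h was lost when any library but LatB 3 h replicate 1 was left out (adjusted p = 0.0539 to 0.114). The call at 6 h was lost without control 0 h replicate 1 (0.0503) or LatB 6 h replicate 3 (0.0683). At 24 h the log2 fold change of -1.02 ± 0.39 was just outside the threshold (adjusted p = 0.0504), and over the alternatives the adjusted p ran from 0.0221 to 0.226. DESeq2 called ACTA2 lower there (adjusted p = 0.0244), while the fits without scaling, with the replicate block or under limma did not.

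At 12 h the value of ACTA2 depended on which library was read. With both, the log2 fold change was 0.25 ± 0.38 (adjusted p = 0.653). Without LatB 12 h replicate 2 it was -0.85 (adjusted p = 0.0865), and without replicate 1 it was 0.85 (adjusted p = 0.0432). The steps from 6 to 12 h (1.43 ± 0.39, adjusted p = 0.0152) and from 12 to 24 h (-1.28 ± 0.39, adjusted p = 0.0484) were called with both libraries. Without replicate 2 they were 0.33 (adjusted p = 0.588) and -0.18 (adjusted p = 0.802). The step from 6 to 12 h also lost its call without LatB 6 h replicate 3 (adjusted p = 0.0581), and the step from 12 to 24 h without LatB 24 h replicate 2 (0.143) or replicate 3 (0.151). With both 12 h libraries in the fit, the step from 6 to 12 h also lost its call with only the compared groups (0.112) and under limma on both scales (0.0513 and 0.0501). The step from 12 to 24 h lost it with the replicate block (0.118), no scaling (0.0511), protein-coding transcripts only (0.0554), only the compared groups (0.322) and limma on both scales (0.188 and 0.189).

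ACTG2 followed the same libraries at a lower level. It had 2.31, 1.88 and 2.12 CPM at control 0 h and 2.78 and 3.60 CPM at control 24 h. With the drug it stood at 1.66, 1.15 and 0.341 CPM at 3 h, 1.18, 1.44 and 1.37 CPM at 6 h, 1.49 and 6.73 CPM at 12 h, and 0.785, 0.338 and 0.732 CPM at 24 h. The treated libraries of 3, 6 and 24 h lay below every control, with 10 to 52 reads each. With all libraries in the fit, its log2 fold change of -2.37 ± 0.59 at 24 h was called (adjusted p = 0.00607). At 3 h it was -0.99 ± 0.53 (adjusted p = 0.183), at 6 h -0.66 ± 0.53 (adjusted p = 0.345) and at 12 h 0.98 ± 0.55 (adjusted p = 0.191). It was called lower at 3 h against control 24 h as the reference (-1.59, adjusted p = 0.0473, within a range of 0.0473 to 0.445 over the alternatives tried). At 6 h it was called lower when the fit held just control 0 h and LatB 6 h (-0.66, adjusted p = 0.0192, within a range of 0.0192 to 0.490). The 12 h value was -0.50 (adjusted p = 0.574) without LatB 12 h replicate 2 and 1.68 (adjusted p = 0.0175) without replicate 1. The steps from 6 to 12 h (1.64 ± 0.57, adjusted p = 0.0443) and from 12 to 24 h (-2.74 ± 0.59, adjusted p = 0.0115) became 0.16 (adjusted p = 0.894) and -1.27 (adjusted p = 0.214) without LatB 12 h replicate 2. The step from 6 to 12 h also lost its call without any 1 of the 3 LatB 6 h libraries (adjusted p = 0.0918 to 0.108), with the replicate block (0.114), with only the compared groups (0.131) and with protein-coding transcripts only (0.0625). The step from 12 to 24 h lost it with only the compared groups (0.227).

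In LatB 12 h replicate 2, ACTA2 and ACTG2 were above all other libraries together with the mesenchyme markers. In the other 15 libraries ACTA2 ran from 8.62 to 28.7 CPM and ACTG2 from 0.338 to 3.60 CPM. The smooth muscle markers did not all move with them there. SYNPO2, at 7.78 CPM, was above the other libraries (0.552 to 2.11). TAGLN at 46.8, CNN1 at 2.23, MYH11 at 0.846 and DES at 0.102 CPM lay within the range of the others. MYOCD, at 63.5 CPM, was below the others (67 to 224). ACTA1 and ACTC1 were low in this library as in the other of its group. LatB 3 h replicate 3, which was lowest of its group for all 4 muscle actins, had the next highest mesenchyme sum, 448 CPM. Its COL1A2, at 363 CPM, was above the other libraries of 3 h (142 and 176 CPM). COL3A1 at 27.0 and DCN at 0.170 CPM were below those libraries. The part of other cell types in these values was not tested.

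**Figure D3:**
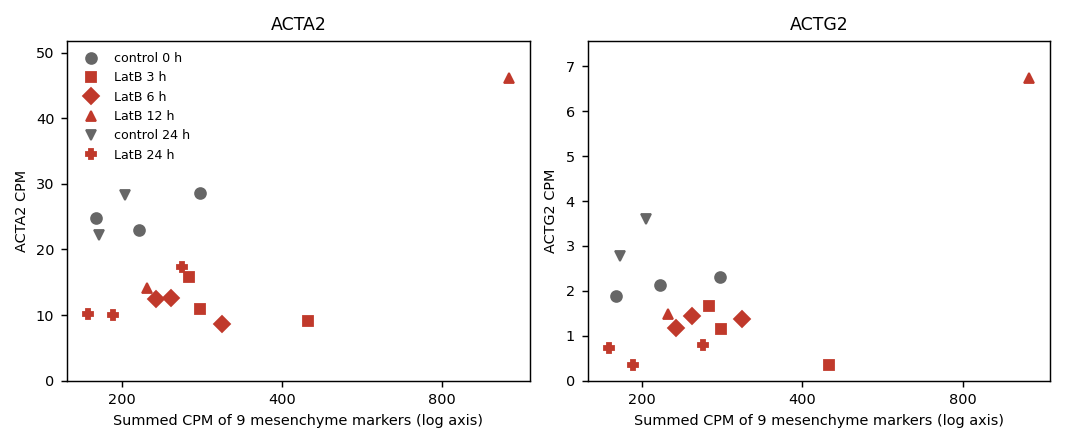
ACTA2 (left) and ACTG2 (right) in CPM, on linear axes from 0, against the summed CPM of 9 mesenchyme markers (log axis), with 1 point per library, controls in grey and LatB in red, shapes for the groups. LatB 12 h replicate 2, at 1067 CPM of markers, lies apart at the top right, and among the other libraries the 5 controls are highest for both genes.

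Reads of ACTA2 divided between transcripts with different start sites, and both kinds were lower at 6 h than at control 0 h. ACTA2-201, with 78.3% of the reads, starts at position 88952773 of chromosome 10, while ACTA2-202 and ACTA2-203, with 16.2% and 4.32%, start upstream, at 88991339 and 88991332. ACTA2-202 and ACTA2-203 had deposited lengths of 878 and 744 bases, against 1694 and 1617 in the annotation used here. The authors' index thus held different models of them, and the split is salmon's estimate. Transcripts of the upstream start had 4.78 ± 0.347 CPM (SD, n = 3) at control 0 h, 1.55 ± 0.540 at 6 h and 3.50 ± 0.739 at LatB 24 h. Those of the downstream start had 20.7 ± 3.32, 9.69 ± 1.90 and 9.01 ± 3.54 CPM. At 24 h the upstream transcripts, at 3.04 to 4.35 CPM against 4.13 and 4.87 CPM in the vehicle, overlapped the control, and the downstream ones, at 6.84 to 13.1 against 18.1 and 23.6 CPM, did not.

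Counted over the family, 4 or 5 of the 6 actin genes were called lower in each drug comparison. At 3 h 5 of the 6 were called lower, where 14.7% of all genes were called lower and 16.8% higher, and ACTG2 was not called. At 6 h the same 5 were called lower, against 20.4% of all genes lower and 22.9% higher. At 12 h ACTB, ACTG1, ACTA1 and ACTC1 were called lower, against 16.8% of all genes lower and 19.1% higher, and at 24 h ACTG1, ACTA1, ACTC1 and ACTG2, against 18.8% lower and 21.9% higher. No actin gene was called higher in any of the 4, by edgeR or by DESeq2, and none of the positive values had an unadjusted p under 0.05. The median log2 fold change of the 6 was -1.04, -1.07, -0.96 and -1.67, against 0.00, -0.01, 0.01 and 0.01 over all genes tested. All 6 genes passed the filter on low counts in each group by itself. The comparisons at 3, 6 and 12 h share the control 0 h libraries, so their calls are not independent of each other. Without scaling of the libraries, the split of all called genes moved from 2810 higher and 2461 lower to 1931 and 3411 at 3 h, and from 3819 and 3411 to 2708 and 4475 at 6 h. The median of all genes moved to -0.10 at 6 h, and all 5 actin calls stood at both times.

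**Figure D4:**
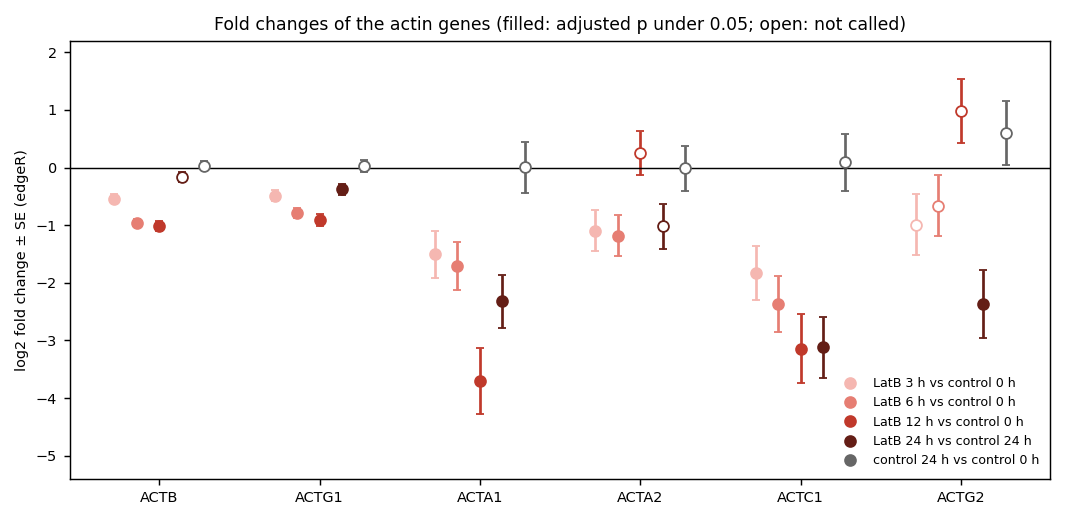
Log2 fold changes with standard errors (vertical axis, edgeR) of the 6 actin genes in the 4 drug comparisons (shades of red) and between the controls (grey), filled where the adjusted p was under 0.05. ACTA1 and ACTC1 reach -3.70 and -3.14 at 12 h, ACTB and ACTG1 about -1, and the control comparison has no filled point.

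Windows of 300 bases around the annotated start sites, 250 before and 50 after, were available from RefSeq (GRCh38.p14) for 5 of the 6 genes, all but ACTB. They were searched on both strands for the exact CArG box, and the 120 bases before each start are shown because 4 of the 5 genes hold the box there. Capitals mark it.
ACTG1, chr17:81512800-81512919, minus strand: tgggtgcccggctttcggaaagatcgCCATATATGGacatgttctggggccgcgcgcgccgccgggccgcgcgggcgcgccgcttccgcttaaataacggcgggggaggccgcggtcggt
ACTA1, chr1:229434095-229434214, minus strand: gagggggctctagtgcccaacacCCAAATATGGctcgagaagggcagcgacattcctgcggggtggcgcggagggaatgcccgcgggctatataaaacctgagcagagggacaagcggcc
ACTC1, chr15:34795550-34795669, minus strand: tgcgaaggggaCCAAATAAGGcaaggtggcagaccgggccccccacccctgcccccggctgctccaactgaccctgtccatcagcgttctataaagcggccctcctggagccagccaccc
ACTG2, chr2:73892888-73893007, plus strand: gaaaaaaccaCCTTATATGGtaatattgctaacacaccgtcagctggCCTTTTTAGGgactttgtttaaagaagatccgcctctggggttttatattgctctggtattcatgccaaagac
ACTA2, chr10:88952774-88952893, minus strand: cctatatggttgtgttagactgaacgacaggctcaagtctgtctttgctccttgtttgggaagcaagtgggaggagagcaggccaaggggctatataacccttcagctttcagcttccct
The box began 94 bases before the start in ACTG1, 97 in ACTA1, 109 in ACTC1, and 110 and 73 in ACTG2. The other windows, 2 of ACTC1 and both of ACTA2 (the downstream start is shown), held no exact match, which says only that these letters are not in these windows. Over all 35116 promoter windows of that length 454 (1.29%) held the box, or 438 of 27305 genes (1.6%). A match is a description of the sequence, and binding was not measured.

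The lists that follow are to be read against the shares of all genes called in the 4 drug comparisons, 14.7% to 20.4% lower and 16.8% to 22.9% higher. For short lists, counts near these shares are no result about the list. SRF itself was lower at the same times as ACTB. It fell from 71.2 CPM at control 0 h to 56.0 at 3 h, 51.3 at 6 h and 50.1 at 12 h, with log2 fold changes of -0.35 (adjusted p = 0.00309), -0.47 (adjusted p = 0.00022) and -0.51 (adjusted p = 0.000489), or -0.42 (adjusted p = 0.00789) at 12 h without LatB 12 h replicate 2. At 24 h it was 84.1 CPM against 74.3 CPM in the vehicle (adjusted p = 0.106). Of 5 genes of SRF and its cofactors, 2 rose and 2 fell at 3 h and at 6 h, 1 fell at 12 h and 1 rose at 24 h. Without LatB 12 h replicate 2, 1 rose and 1 fell at 12 h. These are counts among 5 genes, beside 16.8% higher and 14.7% lower over all genes at 3 h. MYOCD, the smooth and cardiac muscle cofactor, rose by 1.10 at 3 h (adjusted p = 0.00417) and by 1.26 at 6 h (adjusted p = 0.00114). It was at 91.3 ± 21.3 CPM (SD) at control 0 h and 151 ± 6.7 CPM at control 24 h. That difference of 0.73 was not called (adjusted p = 0.412), nor was -0.53 for LatB 24 h against control 24 h (adjusted p = 0.138). MRTFA, the actin-binding cofactor, rose by 0.24 at 3 h and 0.16 at 6 h (adjusted p = 0.000856 and 0.00915). MRTFB was not called at any time. The falling genes at 3 and 6 h were SRF and FHL2, a cofactor that was called higher at 24 h, by 0.41 (adjusted p = 0.0193).

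The actin-related proteins have the fold of actin but serve the Arp2/3 complex, dynactin and chromatin remodelling. Of 13 listed, 10 were tested, and 1 rose and 2 fell at 3 h, 1 and 2 at 6 h, 2 and 2 at 12 h, and 4 and 2 at 24 h, with medians of -0.04, 0.04, -0.03 and 0.11. The all-gene shares were 16.8% higher and 14.7% lower at 3 h and 21.9% higher and 18.8% lower at 24 h. Without LatB 12 h replicate 2 the counts at 12 h were 1 and 2. ACTR3, an actin-like subunit of the Arp2/3 complex that nucleates filaments, fell in all 4 comparisons, by 0.26 to 0.48 in the first 3 and by 0.22 at 24 h (adjusted p = 0.0357). ACTR1B, an actin-like protein of dynactin, fell in all 4 too, by 0.53 at 12 h (adjusted p = 7.22e-06). Both were still called lower at 12 h (adjusted p = 0.000772 and 0.000107) with that replicate left out. ACTR1A was called in none of the 4, and ACTR2, the partner of ACTR3, in 1, at 24 h, where it rose by 0.13 (adjusted p = 0.0482). ACTL6B and ACTL8 were at 0 in all libraries.

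Of 9 genes whose proteins modify actin, 1 rose and 3 fell at 3 and at 6 h, 2 rose and 2 fell at 12 h, and 1 rose and 2 fell at 24 h. Without LatB 12 h replicate 2 the counts at 12 h were 2 and 1. Over all genes 16.8% rose and 14.7% fell at 3 h and 21.9% rose and 18.8% fell at 24 h. NAA80, the acetyltransferase of the actin N terminus, fell in all 4 comparisons, by 0.87 at 3 h (adjusted p = 0.000267) and by 0.57 at 24 h (adjusted p = 0.00716), although its call at 12 h (adjusted p = 0.0293) was lost without LatB 12 h replicate 2 (0.0799). SETD3, the histidine methyltransferase of actin, rose by 0.25 at 3 h (adjusted p = 0.00171) and by 0.14 at 6 h (adjusted p = 0.0371). MICAL1 and MICAL2 encode enzymes that oxidise actin. MICAL1 fell by 0.38 at 6 h (adjusted p = 0.0457) and by 0.99 at 24 h (adjusted p = 0.000299). MICAL2 rose by 1.05 at 12 h (adjusted p = 0.000545), with 92.0 CPM in replicate 1 and 155 CPM in replicate 2 against 59.8 ± 0.506 CPM (SD, n = 3) at control 0 h, and without replicate 2 it rose by 0.62 (adjusted p = 0.008). MICAL3 fell by 0.32 at 12 h (adjusted p = 0.0267), and by 0.41 (adjusted p = 0.028) without replicate 2.

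Of 13 genes of monomer-binding proteins and of the nuclear transport of actin, 2 fell at 3 h, and the counts of rises and falls were 3 and 3 at 6 h, 4 and 3 at 12 h, and 7 and 2 at 24 h, with a median of 0.25 at 24 h against 0.01 over all genes. Of all genes 14.7% fell at 3 h, 22.9% rose and 20.4% fell at 6 h, 19.1% rose and 16.8% fell at 12 h, and 21.9% rose and 18.8% fell at 24 h. Without LatB 12 h replicate 2 the counts at 12 h were 2 and 3. The 2 that fell at 3 h were PFN2, a profilin, and TWF2, a twinfilin. PFN1, the main profilin, rose by 0.24 at 6 h (adjusted p = 0.00226) and by 0.41 at 24 h (adjusted p = 0.000156). At 12 h it rose by 0.18 (adjusted p = 0.0276), or by 0.26 without LatB 12 h replicate 2. The filament-severing CFL1 rose by 0.29 at 24 h (adjusted p = 0.00302). Of the beta-thymosins, which sequester monomers, TMSB10 rose by 0.38 at 24 h (adjusted p = 0.00259) and TMSB4X fell by 0.28 (adjusted p = 0.0183). TMSB10 also rose by 0.20 at 6 h (adjusted p = 0.0397) and by 0.36 at 12 h (adjusted p = 0.00385). Without LatB 12 h replicate 2 its 12 h value was 0.33.

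Among the smooth muscle markers, TAGLN and CNN1 fell with the muscle actins. TAGLN, a smooth muscle protein that binds filaments, fell in all 4 comparisons, from 155 CPM at control 0 h to 74.7 at 3 h, and stood at 15.4 CPM at LatB 24 h against 180 CPM in the vehicle. CNN1, or calponin, fell in all 4 too, from 20.0 to 8.36 CPM at 3 h. Both were still called lower at 12 h without LatB 12 h replicate 2 (adjusted p = 0.00188 and 0.000691). SMTN, or smoothelin, rose by 1.05 at 3 h (adjusted p = 3.62e-05) and by 0.48 at 6 h (adjusted p = 0.00706). Of 7 smooth muscle markers tested, 2 rose and 3 fell at 3 h, 2 rose and 4 fell at 6 h, 1 rose and 3 fell at 12 h (2 and 4 without LatB 12 h replicate 2), and 3 fell at 24 h, where the median was -0.91. Over all genes 16.8% rose and 14.7% fell at 3 h and 18.8% fell at 24 h.

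The profile of each actin gene over the 6 groups was set beside those of the 10518 other genes with a mean log2 CPM of at least 3. The measure is the root mean square distance between group means of log2 CPM, each centred on the gene's own mean. It describes 6 group means of the same 16 libraries. The nearest gene to ACTG1 was FLNA, which encodes the filament crosslinker filamin A, at a distance of 0.05 against a median of 0.40 over all genes, followed by FZD7 (0.08) and ZNF204P (0.09). The same 3 were nearest to ACTB, at 0.14 each, where SRF took rank 32 (0.21). For the other actin genes SRF ranked far lower, at 370 for ACTG1, 1830 for ACTA1, 2242 for ACTC1, 5012 for ACTA2 and 8789 for ACTG2. EDN1, which encodes endothelin 1, was the nearest to ACTA1 (0.34), followed by ANXA3 and STOM, and for ACTC1 these were WNT2B (0.45), EDN1 (0.48) and NPPB (0.54). ACTA2 was nearest to CARF (0.18), CUX2 (0.21) and AKAP12 (0.24), and ACTG2 to CRB2 (0.22), POSTN (0.36) and FAT3 (0.37). Their 12 h means include LatB 12 h replicate 2. Within the family the closest pairs were ACTB with ACTG1 (0.13), ACTA1 with ACTC1 (0.41) and ACTA2 with ACTG2 (0.46), and every other pair was at 0.54 or more.

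**Figure D5:**
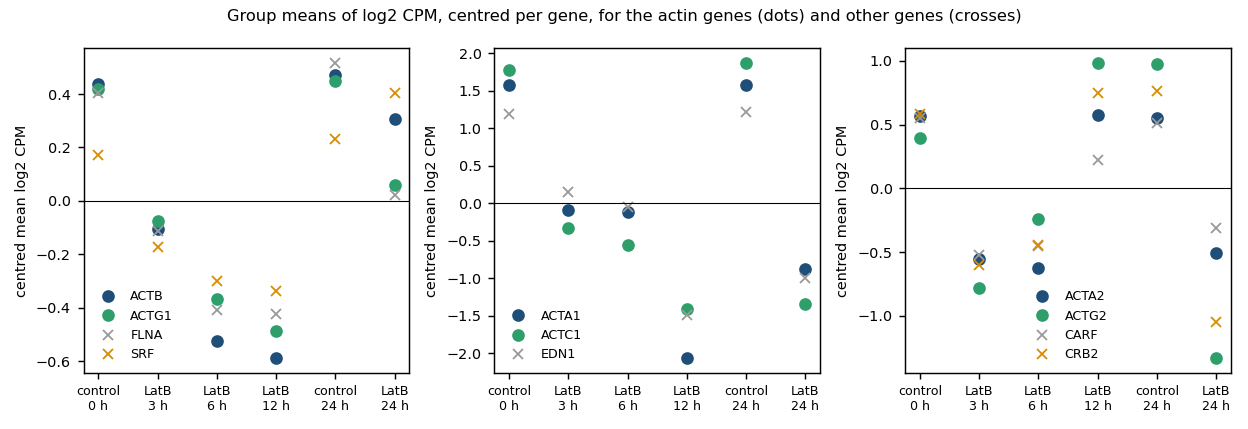
Group means of log2 CPM, centred on each gene's mean over the 6 groups (vertical axis), for ACTB and ACTG1 with FLNA and SRF (left), ACTA1 and ACTC1 with EDN1 (middle), and ACTA2 and ACTG2 with CARF and CRB2 (right). The 3 pairs of actin genes have 3 different profiles, with ACTB at 0.31 and ACTG1 at 0.06 in LatB 24 h, and ACTA1 at -2.06 in LatB 12 h.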

How the data were processed

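For each of the 16 libraries the authors deposited a salmon transcript table with estimated counts and TPM (abundances scaled for transcript length and to the same total in every library). The submitters' processing notes name Salmon 1.3.0, DESeq2 and hg38, while the study's methods describe STAR alignment and gene counts, a different route, so the upstream settings are uncertain. A further deposited table of the authors' log2 fold changes and tests was not used, nor were its 16 columns of per-sample values.

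Transcripts were joined to genes through GENCODE release 44 (165533 of 177456 matched, and 2.92% to 3.17% of reads were left out). Estimated counts were summed per gene and rounded. Library totals of 23609727 to 33515398 set the precision. Counts were tested with edgeR 4.0.16 (quasi-likelihood, two-sided, all 6 groups fitted together, TMM, filterByExpr) with Benjamini-Hochberg adjustment over 16705 genes, called under 0.05. The SE is the log2 fold change over the square root of F. CPM uses TMM-scaled totals. The alternatives were DESeq2 1.42.0, RLE, no scaling, other filters, a replicate block, only the compared groups, limma 3.58.1 on log2(TPM + 1) and log2(TPM + 0.1), protein-coding transcripts alone, relatives removed, the other control, and each library left out. The genes and lists were chosen with earlier results of these data known. Named were all 6 actin genes; in each of the 4 lists of actin-linked genes, the 4 highest in mean CPM and those called in all 4 drug comparisons; the 3 relatives with most reads; and the 3 nearest profiles. Genes named besides these were chosen after their values were seen. Marker lists served as checks of cell type.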

Additional observations from a re-analysis of the deposited data

Results flagged for a closer look

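The difference of ACTB from its control was compared between 24 h and 3 h by a test. The effect at 24 h minus the effect at 3 h was 0.38 on the log2 scale (edgeR, adjusted p = 0.0256). ACTB was 31.3% below control at 3 h and 10.7% below at 24 h. In 3 of 3 libraries at each time ACTB was below every library of its control. The share of all genes that lie apart in this way is not given here. ACTG2 lay apart between the controls too, without a call (edgeR, adjusted p = 0.901). Over the alternatives the adjusted p ran from 0.00328 to 0.115. The reference at 3 h was control 0 h and at 24 h control 24 h. At 3 h the drug therefore cannot be told apart from the hours in culture. No group had 4 or more libraries, so no library was tested as an outlier.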

How the results depend on the processing

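Leaving aside the libraries left out in turn, 502 of 540 values of single actin genes kept their direction and their side of the threshold, 19 lost the call, 8 gained it and 11 changed sign. With a library left out, 199 of 241 kept both, 29 lost the call, 3 gained it and 10 changed sign. None of the values that changed sign (0) had been called by edgeR in the fit of all libraries. They were ACTA2 at 12 h under limma (-0.0050 on log2(TPM + 1) and -0.013 on log2(TPM + 0.1)), ACTB from 6 to 12 h (0.047 without scaling and 0.079 under both limma scales), and, between the controls, ACTA1 (-0.092 with the replicate block and -0.0012 under both limma scales), ACTA2 (0.0053 without scaling and 0.0034 without a filter) and ACTC1 (-0.10 with protein-coding transcripts only). With a library left out in turn, ACTA2 at 12 h ran from -0.85 to 0.85 and ACTG2 from -0.50 to 1.68, and ACTB from 6 to 12 h from -0.19 to 0.060. Between the controls ACTB ran from -0.0099 to 0.078, ACTG1 from -0.021 to 0.074, ACTA1 from -0.040 to 0.036, ACTA2 from -0.20 to 0.15 and ACTC1 from -0.027 to 0.17.

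The number of actin genes called stayed within 1.5 times in the 4 drug comparisons. From 3 to 6 h it went from 2 to 1 with the replicate block and under both limma scales, and from 6 to 12 h from 3 to 1 with only the compared groups and on log2(TPM + 1). From 12 to 24 h it went from 4 to 0 with only the compared groups, a fit on 5 libraries in which edgeR called 0 of all genes, with 2542 at an unadjusted p under 0.05, 3 of the 6 actin genes among them. With a library left out it ran from 1 to 2, from 0 to 2, from 2 to 4, and from 0 to 1 for the effect at 24 h minus that at 3 h. The cause of these changes was not tested.

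Same-numbered libraries of different groups did not deviate together, with a median correlation over genes of -0.0231 in 36 pairs (2 over 0.1), and 5 of 16 libraries correlated best with their own number, so the numbers were not read as pairs. Over all genes, the calls between the controls were 42, and 2 to 248 under the alternatives (6 with the block). With only the compared groups they went from 5988 to 2828 at 12 h and from 4837 to 1593 from 6 to 12 h, and the block took those from 12 to 24 h from 1952 to 1093. On log2(TPM + 1) they were 1751 against 3710 from 3 to 6 h, 2786 from 6 to 12 h, 751 from 12 to 24 h, and 2941 against 4665 for the difference of effects. The depth limits ACTA1, ACTC1 and ACTG2, which had 9 to 107, 18 to 142 and 10 to 199 reads in the treated libraries.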
